A study of Homo sapiens with 5 samples.

Results

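The second AURKA siRNA (siAURKA-2) was compared with a non-targeting siRNA (siNT) in GFP-SAS cells, over every gene that the array measured. Differences were formed for 18239 genes, which are all genes of the series that at least 1 unambiguous probe set named, as the siAURKA-2 array minus the siNT array. Of these, 71 lay above siNT by 2-fold or more (0.389% of all genes) and 159 lay below it by as much (0.872%). GFP-SAS is labelled as a squamous cell carcinoma cell line; its parent, SAS, is known as a human tongue carcinoma line, and the prefix is the name of green fluorescent protein. Cells of both groups were treated for 24 h, with siAURKA-2 given at 10 nM; the labels can be read as giving siNT the same concentration or none. The other 3 arrays of the series, used here as description, came from the same line after 24 h of DMSO, of 100 nM MLN8237 (alisertib, an inhibitor of Aurora kinase A) or of 10 nM siAURKA-1, a further siRNA against the same gene. Each group was 1 array, so no difference below has an estimate of error, no test was run, and a gene is called higher or lower only by the size of its difference. The labels name no clone, passage, pooling or batch.

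Aurora kinase A, encoded by AURKA, is a serine/threonine kinase of the centrosome and the spindle poles that acts at mitotic entry and in building a bipolar spindle. It is bound and activated by TPX2 on spindle microtubules, and it phosphorylates PLK1 with the help of BORA. AURKA is overexpressed in many carcinomas, those of squamous epithelium among them. An siRNA is loaded into an Argonaute protein, which cleaves the fully matched mRNA and can also lower transcripts that pair only with the short seed of the guide. Each siRNA has its own seed, and several siRNAs against a target are commonly used side by side.

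All differences are siAURKA-2 minus siNT unless another control is named. The base of the logarithm is not given in the sources used here and was taken as 2, the base used by robust multi-array averaging (RMA), by which the values were made, and every fold and percentage rests on it. The values carry a limit that touches every result. Each probe set had been centred, so that the median over the 5 arrays was 0 for all 49386 of them, and a value gives the distance of 1 array from the middle array in log2 units. The values therefore rank arrays within a gene and say nothing of how abundant a transcript was, and the epithelial identity of the line could not be examined through the level of its markers. Differences were small for most genes: 81.1% lay within 1.2-fold and the median was 0.00. The non-targeting array itself differed at least 2-fold from the DMSO array in 54 genes (0.296%), 42 higher and 12 lower. In total RNA from a culture, fewer cells in a given state and less RNA per cell cannot be told apart. Markers of fibroblasts, leukocytes, endothelium, melanocytes and skeletal muscle, 26 measured of 28, ran from -0.23 to 0.10, with 0 of them at least 1.5-fold apart.

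**Figure D1:**
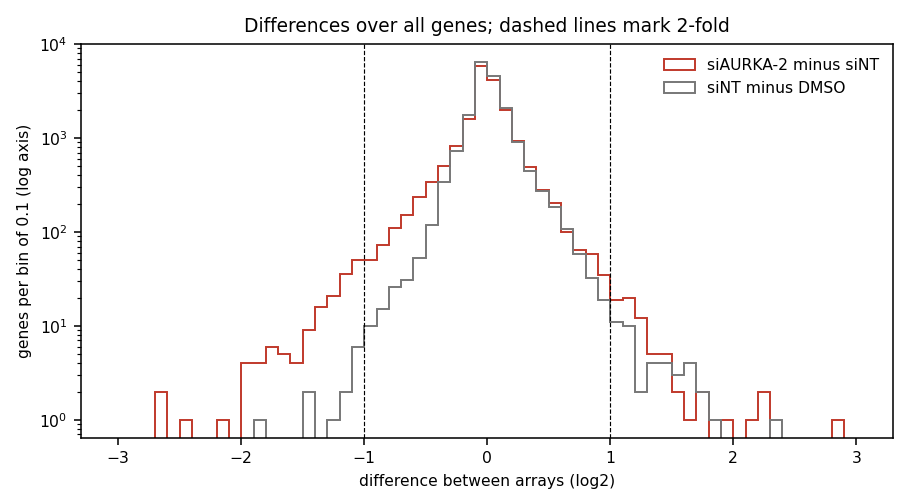
Histogram of differences between arrays for all 18239 genes, with the difference in log2 units on the horizontal axis and the number of genes per bin on a logarithmic vertical axis. Red is siAURKA-2 minus siNT and grey is siNT minus DMSO; the dashed lines mark 2-fold, beyond which lie 159 lower and 71 higher genes for the former.

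The target was read by 1 probe set. AURKA had values of -2.64 with siAURKA-2 and 0.00 with siNT, beside 0.15 for DMSO, 0.64 for MLN8237 and -3.36 for siAURKA-1. The siAURKA-2 array lay below both controls and the inhibitor array, and above only the siAURKA-1 array. Its difference from siNT was -2.64, which is 6.24-fold lower and leaves 16.0% of the siNT signal, and it was the second lowest of all genes. The 14 other measured Aurora kinases and cofactors had a median of 0.01, and 0 of them were at least 1.5-fold apart in either direction, where 1.96% of all genes were higher and 3.11% lower by that measure. AJUBA, a LIM protein that binds Aurora A, was furthest from siNT (-0.54, and -0.67 against DMSO, past 1.5-fold there), followed by the sister kinase AURKB (-0.39). The microtubule polymerase gene CKAP5 (0.19), the activator TPX2 (0.07), BORA (-0.11) and the spindle adaptor TACC3 (0.00) lay close to siNT.

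The highest gene was RAB40B, which encodes a small GTPase of the Rab family. Its values were 0.93 with siAURKA-2 and -1.90 with siNT, beside -0.01 for DMSO, 0.00 for MLN8237 and 0.26 for siAURKA-1, so that much of the difference of 2.83 came from a low siNT array. Histone genes followed. H2BC5, encoding a histone H2B, read 1.89 with siAURKA-2 and -0.37 with siNT, beside -0.06 for DMSO, 0.23 for MLN8237 and 0.00 for siAURKA-1, and the siAURKA-2 array stood alone at the top. H2AC6, encoding a histone H2A, read 1.05 with siAURKA-2 and -1.07 with siNT, beside 0.00 for DMSO, 0.17 for MLN8237 and -0.99 for siAURKA-1; both siNT and siAURKA-1 were low. GDF15, a stress-responsive cytokine, had 1.55 with siAURKA-2 and -0.66 with siNT, beside 0.00 for DMSO, -0.51 for MLN8237 and 0.86 for siAURKA-1, with both AURKA siRNA arrays above the rest. GOLT1A, a vesicle transport protein of the Golgi, had 1.4996 with siAURKA-2 and -0.49 with siNT, beside -0.31 for DMSO, 0.30 for MLN8237 and 0.00 for siAURKA-1, and siAURKA-2 stood well above the rest.

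Others of the 30 highest genes followed. CYP1B1, a cytochrome P450 induced through the aryl hydrocarbon receptor, was 1.78 above siNT and also above DMSO (1.78), although its 5 probe sets ran from -0.06 to 3.10. The thiamine transporter gene SLC19A2 (1.64), the glycine receptor subunit gene GLRB (1.49) and LIPA, the lysosomal acid lipase (1.45), were further above siNT than above DMSO (0.81, 0.51 and 0.67). ABCG1, an exporter of cholesterol, was 1.36 above siNT, and PMVK, the phosphomevalonate kinase of cholesterol synthesis, 1.36. The sialyltransferase gene ST6GALNAC2 (1.39), METTL25 (1.33), the zinc finger gene ZBTB41 (1.25), the histone H2A gene H2AC25 (1.24) and OSCP1 (1.22) were in the same range. PYGL, a glycogen phosphorylase, gave 1.28, and PRXL2A, a peroxiredoxin-like protein, 1.24. SUN3, a nuclear envelope protein known from male germ cells, gave 1.55, and SEL1L3 1.43. Among regulators, CDKN2B, the p15 inhibitor of D-type cyclin kinases, was higher by 1.27 and the mRNA-binding protein gene CPEB4 by 1.26. KIF3A, a kinesin-2 motor subunit of ciliary transport, was higher by 1.35, but only 0.26 above DMSO.

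At the low end SERTAD4 came first, below AURKA. Its values were -2.18 with siAURKA-2 and 0.49 with siNT, beside 0.00 for DMSO, 0.14 for MLN8237 and -0.58 for siAURKA-1, and the siAURKA-2 array lay far below every other one. CD24, a glycosylated surface protein, read -1.74 with siAURKA-2 and 0.71 with siNT, beside -0.95 for DMSO, 0.00 for MLN8237 and 1.30 for siAURKA-1, a gene in which siAURKA-1 was the highest and siAURKA-2 the lowest array. PMEPA1, a feedback inhibitor of TGF-beta signalling, read -1.25 with siAURKA-2 and 0.95 with siNT, beside -0.55 for DMSO, 0.19 for MLN8237 and 0.00 for siAURKA-1, with siNT at the top. IL7R, the interleukin-7 receptor chain, gave -1.9994 against siNT and -1.33 against DMSO. TFAM, a factor in the transcription and packaging of mitochondrial DNA, read -1.82 with siAURKA-2 and 0.17 with siNT, beside 0.07 for DMSO, 0.00 for MLN8237 and -0.14 for siAURKA-1. All 3 of its probe sets gave between -2.14 and -1.91, and the other 4 arrays lay close together.

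Further genes of the 30 lowest followed. ZWINT, a kinetochore protein (-1.79), and PBK, a kinase of mitotic cells (-1.62), were lower. The transmembrane nucleoporin gene NDC1 gave -1.69, ATP11B, a phospholipid flippase, -1.56, and DENND6A, an exchange factor for Rab14, -1.84. CAP2, which recycles actin monomers, gave -1.72, with 7 probe sets between -2.73 and -1.31, and FHOD3, a formin that elongates actin filaments, gave -1.47. The glutamine transporter gene SLC38A5 (-1.67), the ubiquitin ligase gene RFFL (-1.57) and the CUL3 adaptor genes KLHL15 (-1.75) and KLHL8 (-1.54) were also lower. BCAT1, the cytosolic branched-chain aminotransferase (-1.65), and AFAP1L2, an adaptor of Src family kinases (-1.52), belonged to them. QDPR, which regenerates tetrahydrobiopterin, gave -1.79, and TRHDE, an ectoenzyme that degrades thyrotropin-releasing hormone, -1.94. CCNG1, encoding cyclin G1, read -1.67 with siAURKA-2 and 0.11 with siNT, beside 0.00 for DMSO, 0.21 for MLN8237 and 0.00 for siAURKA-1. The siAURKA-2 array was again alone, and the 5 probe sets of this gene all lay between -1.89 and -1.20.

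**Figure D2:**
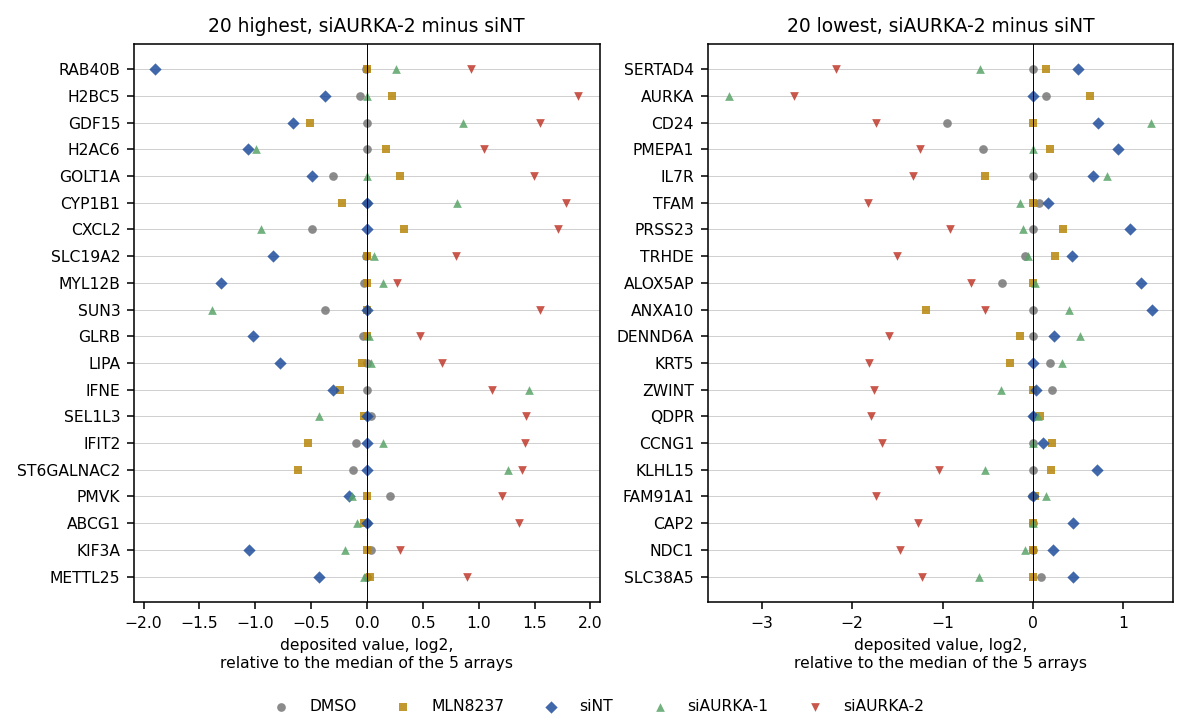
Deposited values in log2 units, relative to the median of the 5 arrays, for the 20 genes furthest above siNT (left) and the 20 furthest below (right) with siAURKA-2, 1 symbol per array. RAB40B shows siNT far below the other arrays, whereas for TFAM and CCNG1 the siAURKA-2 array alone is displaced.

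The size of a difference from siNT depends on both arrays, so the place of the siAURKA-2 array among all 5 was counted. It was the outermost array, or level with it, in 64 of the 71 higher genes and in 135 of the 159 lower ones. These genes were selected by the difference between siAURKA-2 and siNT, which by itself favours an outer place for siAURKA-2. The counts are therefore description only. Over all genes, the siAURKA-2 array lay at least 2-fold beyond all 4 other arrays in 15 genes at the high end and in 44 at the low end. The same count was 40 and 79 for siAURKA-1, 3 and 3 for siNT, and 0 and 0 for both DMSO and MLN8237. In those 44 genes the other 4 arrays were all at least 2-fold above siAURKA-2.

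Genes of this kind at the low end had varied known functions. QDPR had the widest gap, -1.79 to the nearest other array. FAM91A1, which tethers vesicles at the Golgi, followed with -1.73, then TFAM (-1.68), CCNG1 (-1.67), SERTAD4 (-1.60) and the basal keratin gene KRT5 (-1.56). DENND6A (-1.46), ATP11B (-1.45), TRHDE (-1.42), ZWINT (-1.41), NDC1 (-1.38) and KLHL8 (-1.35) came next. FZD2, a Wnt receptor, and the long noncoding RNA gene UCA1 had gaps of -1.27 and -1.26. FAM91A1 was -1.74 against siNT, -1.73 against DMSO, and the same gene differed by 0.01 between the controls. Further genes with such a gap, named after their values were seen, were MAT2B, a regulatory subunit of S-adenosylmethionine synthesis (-1.23), LAMTOR5 of the lysosomal Ragulator complex (-1.21) and STARD7, a carrier of phosphatidylcholine to mitochondria (-1.10). PAPOLA, the canonical poly(A) polymerase (-1.09), CLPX, the unfoldase of a mitochondrial protease (-1.09), COX7C of cytochrome c oxidase (-1.03) and CTNNB1, which encodes beta-catenin (-1.02), belonged there too. All 10 probe sets of PAPOLA were at least 2-fold below siNT, from -2.41 to -1.15.

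At the high end H2BC5 had the widest gap (1.66 above the nearest array), followed by SUN3 (1.54), SEL1L3 (1.39), the chemokine gene CXCL2 (1.38) and ABCG1 (1.36). IFIT2, an interferon-induced RNA-binding protein (1.27), the MHC class I gene HLA-B (1.17) and IL6 (1.05) were in the same set. SAV1, the scaffold of the Hippo kinase MST (1.14), NAP1L5, an imprinted member of the nucleosome assembly family (1.15), and ETFDH, which passes electrons from fatty acid oxidation to ubiquinone (1.04), were as well. SAV1 read 1.22 with siAURKA-2 and 0.00 with siNT, beside -0.49 for DMSO, 0.08 for MLN8237 and -0.35 for siAURKA-1, and its 3 probe sets gave 1.04 to 1.32 against siNT. HLA-B read 1.17 with siAURKA-2 and 0.00 with siNT, beside -0.33 for DMSO, -0.07 for MLN8237 and 0.00 for siAURKA-1. For both genes the siAURKA-2 array stood alone, although the 3 probe sets of HLA-B ran from 0.17 to 1.37 against siNT.

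**Figure D3:**
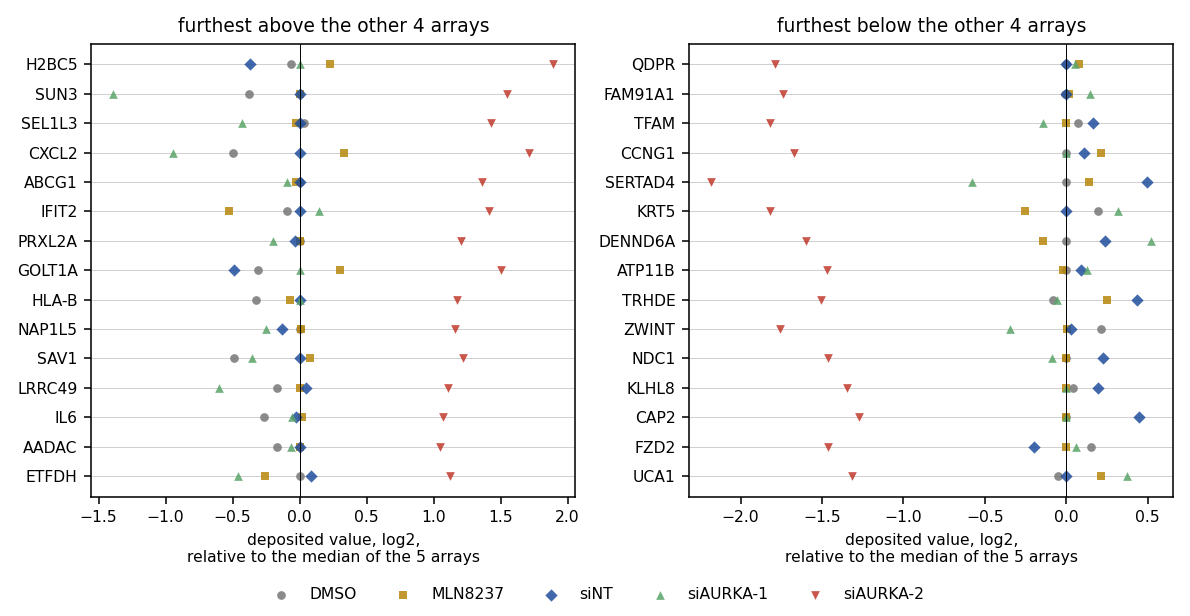
Deposited values in log2 units, relative to the median of the 5 arrays, for the 15 genes in which the siAURKA-2 array lies furthest above (left) and furthest below (right) all other arrays. The other 4 arrays of QDPR, FAM91A1 and ATP11B lie close together near 0, while siAURKA-2 sits between -1.79 and -1.47.

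In other genes the siNT array was displaced as well. Of the 71 higher genes, siNT was the lowest of the 4 arrays other than siAURKA-2, or level with the lowest, in 44, and of the 159 lower genes it was the highest in 97. Selection by the difference from siNT favours such a place for siNT and smaller differences from DMSO. These counts and the medians that follow are therefore description only. The median of the higher genes was 1.18 against siNT and 0.9987 against DMSO, and that of the lower genes -1.17 and -0.92. Over all genes 0.724% were at least 2-fold above DMSO and 0.559% below. At least 2-fold from DMSO as well were 35 of the higher and 68 of the lower genes. Not 1.5-fold from DMSO in the same direction were 11 and 31, and these 31 include 3 lower genes that lay above DMSO. Among the higher genes, MYL12B, a regulatory light chain of nonmuscle myosin, gave 1.58 against siNT and 0.29 against DMSO. METTL9, a histidine methyltransferase, gave 1.26 and 0.11, and ZNF428 1.24 and 0.28. Among the lower genes, ALOX5AP, an activator of leukotriene synthesis, gave -1.88 and -0.34, and the secreted lipase inhibitor gene ANGPTL4 -1.20 and 0.04. TMPRSS11E, a membrane serine protease gene, read 0.35 with siAURKA-2 and 1.82 with siNT, beside -0.52 for DMSO, 0.00 for MLN8237 and -0.20 for siAURKA-1, so that siAURKA-2 lay below siNT (-1.46) and above every other array. ANXA10, an annexin, read -0.53 with siAURKA-2 and 1.32 with siNT, beside 0.00 for DMSO, -1.18 for MLN8237 and 0.40 for siAURKA-1, with siNT on top and MLN8237 at the bottom.

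The probe sets of a gene were also compared. The called genes were chosen by the median of these same probe sets on the same arrays, so their agreement is a description and no measure of error between arrays. Of the 71 higher genes 42 had several probe sets, and in 40 of these all pointed the same way; in 13 every probe set was at least 2-fold higher. Of the 159 lower genes 106 had several, all in one direction in 100, and in 43 every probe set was at least 2-fold lower. ZWINT (-1.91 to -1.67), TRHDE (-2.43 to -1.45), PRSS23, a secreted serine protease (-2.48 to -1.89), ZNHIT6, an assembly factor of small nucleolar ribonucleoproteins (-1.67 to -1.47), and DUT, the dUTPase that keeps uracil out of DNA (-1.61 to -1.40), were among the lower ones. NAP1L5 (1.19 to 1.47), IFIT2 (1.34 to 1.49), SOCS2, a suppressor of cytokine signalling (1.14 to 1.23), and LACTB, a mitochondrial serine protease (1.02 to 1.12), were among the higher ones. Close to the 2-fold mark, GGPS1 (1.0148), NMU (1.0113) and TMBIM4 (1.0024) were just inside at the high end, and LZTFL1 (0.9956), MITD1 (0.9911) and DNAJC19 (0.9881) just outside. At the low end the genes just inside were CTBP1 (-1.0028), DLEU1 (-1.0026) and PLEKHA6 (-1.0003). SIPA1L2 (-0.9989), SLC30A7 (-0.9987) and PIM1 (-0.9987) were just outside.

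Functional groups were then described by lists, with the number of members at least 1.5-fold from siNT and the median. Over all genes the median was 0.00, and 358 genes (1.96%) were at least 1.5-fold higher and 568 (3.11%) at least 1.5-fold lower. The percentiles 25 and 75 over all genes were -0.08 and 0.09. As a reference for counts above or below siNT, chromosome 1, with the most measured genes, had 795 of 1824 above and 810 below. The lists with the highest medians were those of the lysosome, cholesterol synthesis and p53 targets, and those with the lowest were DNA replication and ribosome biogenesis. No list median reached 1.5-fold against siNT. With DMSO as the control, 2.65% of all genes were at least 1.5-fold higher and 2.55% lower, and counts against DMSO are given beside the lists where the control made a large difference.

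**Figure D4:**
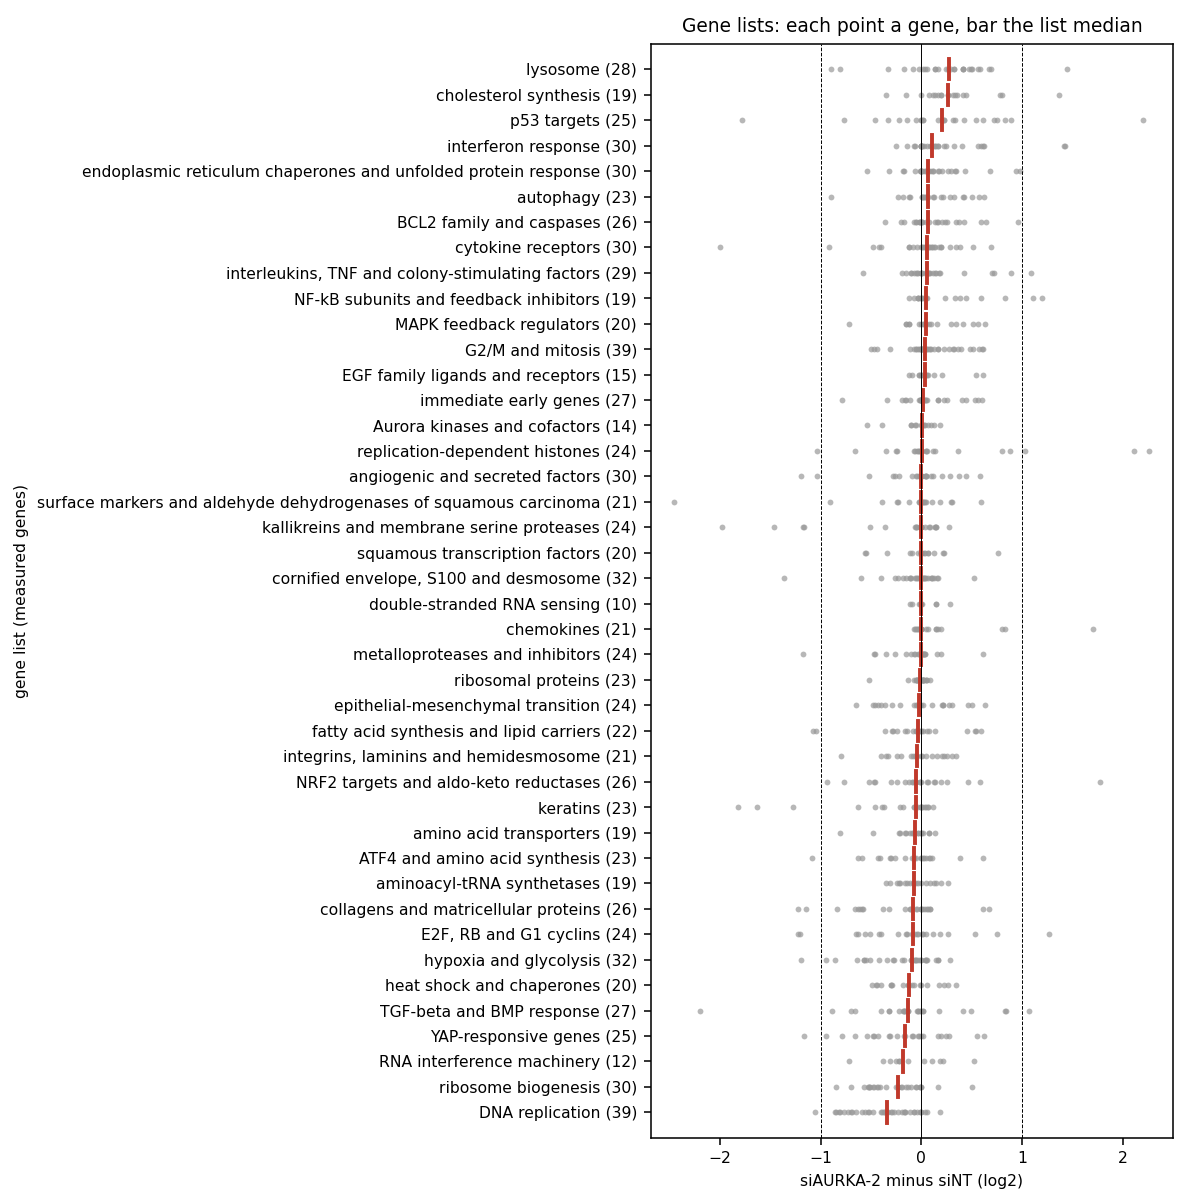
Difference between siAURKA-2 and siNT in log2 units for the members of each gene list (grey points) and the list median (red bar), ordered by the median, with the number of measured genes in brackets. Medians run from -0.34 for DNA replication to 0.28 for the lysosome, and single members reach beyond the dashed 2-fold lines in many lists whose median is near 0.

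Several inflammatory genes were higher. Many of them are known targets of the transcription factor NF-kB, whose subunits are held in the cytoplasm by inhibitors that NF-kB itself induces. Of 19 measured NF-kB subunits and feedback inhibitors 4 were at least 1.5-fold higher and 0 lower, of 21 chemokines 3 and 0, and of 29 interleukins, TNF family members and colony-stimulating factors 4 and 0. The list medians were 0.05, 0.00 and 0.05, so that most members of each list lay near siNT. The promoter windows of 4 of them are shown because they carry the sequence to which NF-kB is known to bind. Each window runs from 250 bases before to 50 bases after the RefSeq start (GRCh38.p14) on the strand of the gene, with matches to GGNNTTTCC on either strand in capitals.
CXCL2, chr4:74099146-74099445, minus strand: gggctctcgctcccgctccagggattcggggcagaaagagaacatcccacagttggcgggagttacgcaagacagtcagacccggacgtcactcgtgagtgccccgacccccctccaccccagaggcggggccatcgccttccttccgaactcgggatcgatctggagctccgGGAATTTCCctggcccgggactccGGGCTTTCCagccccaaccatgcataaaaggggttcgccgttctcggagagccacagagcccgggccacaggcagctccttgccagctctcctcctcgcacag
IL6, chr7:22726950-22727249, plus strand: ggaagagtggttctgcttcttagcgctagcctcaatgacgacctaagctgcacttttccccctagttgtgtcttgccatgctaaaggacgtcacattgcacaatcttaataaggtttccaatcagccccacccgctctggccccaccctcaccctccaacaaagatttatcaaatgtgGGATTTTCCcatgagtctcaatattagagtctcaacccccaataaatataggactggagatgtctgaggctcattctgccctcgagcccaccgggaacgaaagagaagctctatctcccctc
TNFAIP3, chr6:137867009-137867308, plus strand: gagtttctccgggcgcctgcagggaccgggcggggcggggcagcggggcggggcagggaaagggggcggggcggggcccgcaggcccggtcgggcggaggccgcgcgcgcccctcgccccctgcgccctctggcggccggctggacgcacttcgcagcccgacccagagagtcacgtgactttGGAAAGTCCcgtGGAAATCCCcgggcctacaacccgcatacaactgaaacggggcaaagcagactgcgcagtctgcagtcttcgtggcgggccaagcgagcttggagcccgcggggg
CXCL8, chr4:73740319-73740618, plus strand: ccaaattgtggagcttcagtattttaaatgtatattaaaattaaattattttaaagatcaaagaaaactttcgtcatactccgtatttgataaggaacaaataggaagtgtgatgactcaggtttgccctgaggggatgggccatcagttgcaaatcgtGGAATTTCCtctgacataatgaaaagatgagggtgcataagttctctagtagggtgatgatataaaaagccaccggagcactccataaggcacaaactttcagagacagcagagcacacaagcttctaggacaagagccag

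The first matches begin 77 bases before the start in CXCL2, 72 in IL6, 67 in TNFAIP3 and 91 in CXCL8. CXCL2 and TNFAIP3 hold a further match each, 53 and 55 bases before the start. Of the 11 members at least 1.5-fold higher, 10 had a window in the table and 7 of these held a match: CCL20, CXCL2, CXCL8, IL6, NFKBIA, REL and TNFAIP3. IL1A, IL1B and IL24 held none, and RELB had no entry. Over the 3 lists together 18 of 55 windows held the motif (32.7%), and over all measured genes 948 of 14492 (6.54%). These are matches of letters and not evidence of binding.

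The same genes varied widely across arrays. CXCL2, a chemokine that attracts neutrophils, read 1.71 with siAURKA-2 and 0.00 with siNT, beside -0.49 for DMSO, 0.33 for MLN8237 and -0.95 for siAURKA-1. IL6 read 1.07 with siAURKA-2 and -0.02 with siNT, beside -0.27 for DMSO, 0.02 for MLN8237 and -0.05 for siAURKA-1, with siAURKA-2 alone well above 0. Its 2 probe sets differed, with 0.46 and 1.73 against siNT. TNFAIP3, the A20 inhibitor of NF-kB, read 1.11 with siAURKA-2 and 0.00 with siNT, beside -1.11 for DMSO, 0.43 for MLN8237 and -0.59 for siAURKA-1. For TNFAIP3 the DMSO array lay far below siNT, so that siAURKA-2 was 2.22 above DMSO and 1.11 above siNT. RELB, a subunit of the noncanonical pathway (1.19), and NFKBIA, which encodes the inhibitor IkB-alpha (0.83), were higher. CXCL8 (0.83), CCL20 (0.80), IL1B (0.89), IL24 (0.72) and IL1A (0.70) were higher than siNT and higher still against DMSO (1.97, 1.69, 1.33, 2.34 and 1.15). REL gave 0.59 against siNT and 0.19 against DMSO. The genes of the main subunits NFKB1 (-0.12) and RELA (-0.07) and the chemokine gene CXCL1 (-0.08) were near siNT. ICAM1, an adhesion molecule of inflamed epithelium named after its value was seen, gave 0.84 and read 1.08 with siAURKA-2 and 0.24 with siNT, beside 0.00 for DMSO, 0.00 for MLN8237 and -0.02 for siAURKA-1.

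**Figure D5:**
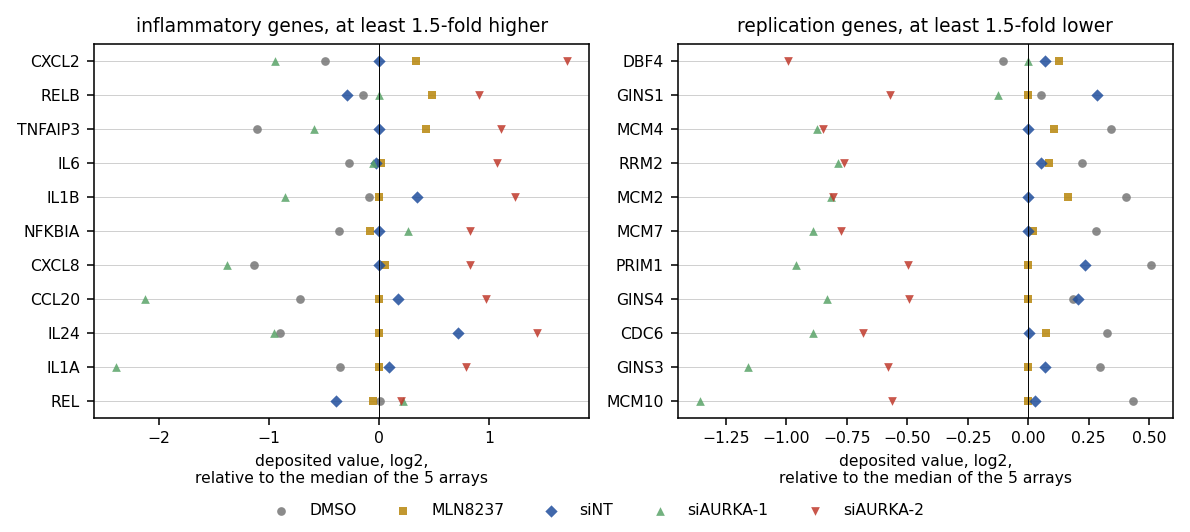
Deposited values in log2 units, relative to the median of the 5 arrays, for the inflammatory genes at least 1.5-fold higher (left) and the DNA replication genes at least 1.5-fold lower (right) with siAURKA-2 than with siNT. In the left panel siAURKA-2 is the highest array for all genes but REL, and in the right panel siAURKA-1 lies at or below siAURKA-2 for most genes. Selection by the difference from siNT favours an outer place for siAURKA-2, so these places are description only.

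Cytokine receptors did not share a direction. Of 30 measured, 1 was at least 1.5-fold higher (IL6R, 0.70) and 2 lower (IL7R, and LIFR at -0.92), and against DMSO 4 and 1. The interferon response list had a median of 0.11, with 5 of 30 members at least 1.5-fold higher and 0 lower. IFNE, encoding interferon epsilon of epithelia, read 1.12 with siAURKA-2 and -0.31 with siNT, beside 0.00 for DMSO, -0.24 for MLN8237 and 1.45 for siAURKA-1, high with both AURKA siRNAs. IFIT2 read 1.42 with siAURKA-2 and 0.00 with siNT, beside -0.10 for DMSO, -0.53 for MLN8237 and 0.14 for siAURKA-1, high with siAURKA-2 alone. IFIT3 (0.62), IFI6 (0.62) and ISG20 (0.60) were past 1.5-fold. The antiviral effector genes MX1 (0.10), OAS1 (0.05) and ISG15 (0.14) were not. Of 10 sensors of double-stranded RNA 0 were past 1.5-fold. The largest difference among them was that of IFIH1, which encodes MDA5 (0.28, but 0.63 against DMSO), and RIGI gave 0.00. In the RNA interference machinery, through which an siRNA acts, DICER1 was lower than siNT (-0.72) but level with DMSO (-0.02). AGO2, the Argonaute with slicing activity, gave -0.25, and AGO3 0.52.

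Most DNA replication genes had lower values than with siNT. Of 39 measured members, 34 lay below siNT, 11 at least 1.5-fold below, and 0 were 1.5-fold above, with a median of -0.34. Against DMSO the median was -0.62, past 1.5-fold, with 23 members lower, and siNT minus DMSO had a median of -0.28 for the same genes. Many such genes are transcribed through E2F factors. The windows of a helicase subunit and of DTL, which is outside this list, are shown with matches to TTTNNCGC on either strand in capitals.
MCM7, chr7:100101348-100101647, minus strand: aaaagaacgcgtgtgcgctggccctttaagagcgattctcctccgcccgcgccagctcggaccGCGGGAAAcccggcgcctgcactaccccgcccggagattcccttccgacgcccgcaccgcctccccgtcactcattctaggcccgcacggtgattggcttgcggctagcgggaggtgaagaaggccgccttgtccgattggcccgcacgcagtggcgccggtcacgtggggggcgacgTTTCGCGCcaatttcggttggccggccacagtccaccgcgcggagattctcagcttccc
DTL, chr1:212035498-212035797, plus strand: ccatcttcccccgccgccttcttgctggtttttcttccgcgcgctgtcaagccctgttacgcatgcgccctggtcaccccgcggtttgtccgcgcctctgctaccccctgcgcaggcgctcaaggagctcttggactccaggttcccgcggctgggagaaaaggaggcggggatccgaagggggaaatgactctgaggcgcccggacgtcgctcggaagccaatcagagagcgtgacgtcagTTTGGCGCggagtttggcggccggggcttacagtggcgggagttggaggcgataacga

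The matches begin 187 and 9 bases before the start in MCM7 and 8 bases before it in DTL. Of 34 list members with a window, 19 held this motif (55.9%), beside 9.0% of all measured genes and 14.3% of the G2/M list. Among the 11 members at least 1.5-fold lower, 5 of 9 windows held it: MCM2, MCM7, GINS1, GINS3 and CDC6. DBF4, MCM10, PRIM1 and RRM2 held none, and MCM4 and GINS4 had no entry. By role, the licensing helicase subunits MCM2 (-0.81), MCM4 (-0.85) and MCM7 (-0.77) were lower, whereas MCM3 (-0.37), MCM5 (0.00) and MCM6 (-0.16) were not past 1.5-fold. MCM10, which activates the helicase, gave -0.59 and was lowest with siAURKA-1. GINS1 (-0.85), GINS3 (-0.65) and GINS4 (-0.70), which complete the active helicase, were lower. DBF4, the activating subunit of the CDC7 kinase, was the lowest member (-1.06) and read -0.99 with siAURKA-2 and 0.07 with siNT, beside -0.11 for DMSO, 0.13 for MLN8237 and 0.00 for siAURKA-1. The siAURKA-1 array was level with the controls there, unlike in MCM7, which read -0.77 with siAURKA-2 and 0.00 with siNT, beside 0.28 for DMSO, 0.02 for MLN8237 and -0.89 for siAURKA-1. Primase subunit gene PRIM1 (-0.73), the loading factor gene CDC6 (-0.68) and the ribonucleotide reductase gene RRM2 (-0.81) were lower, and the sliding clamp gene PCNA gave -0.17. DUT, outside the list, read -1.37 with siAURKA-2 and 0.06 with siNT, beside 0.43 for DMSO, 0.00 for MLN8237 and -0.74 for siAURKA-1, low with both AURKA siRNAs and lowest with siAURKA-2.

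Regulators of the G1 phase differed singly. CCND1, encoding cyclin D1, was lower (-1.20; -0.78 against DMSO), as was DTL (-1.23), and the F-box gene SKP2 gave -0.65. CDKN2B read 1.27 with siAURKA-2 and 0.00 with siNT, beside -0.55 for DMSO, -0.18 for MLN8237 and 0.58 for siAURKA-1, highest with siAURKA-2. CDKN1A, the p21 inhibitor, gave 0.75 against siNT and 1.2007 against DMSO. RB1 was -0.63 against siNT and -0.17 against DMSO, with siNT displaced. The G2/M list had a median of 0.03, with 2 of 39 members at least 1.5-fold higher and 0 lower, and 0 either way against DMSO. They were SPC25, a kinetochore subunit (0.62, but -0.29 against DMSO), and ANLN, the scaffold of the cytokinetic ring (0.61 and 0.24). CENPA, the centromeric histone, gave 0.48, BUB1 of the spindle checkpoint 0.39, KIF20B -0.47 and CDK1 0.00. ZWINT and PBK, which are outside the list, were thus lower while most mitotic genes were near siNT. With siAURKA-1 the G2/M list had a median of -0.40 against the same siNT array.

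Replication-dependent histone genes split in both directions. Of 24 measured, 5 lay 1.5-fold or more above siNT and 2 below, around a median of 0.00. H2BC5 (2.27), H2AC6 (2.11), H2BC4 (1.03), H2AC8 (0.88) and H2BC8 (0.81) were higher. H2BC9 (-1.04) and H4C3 (-0.66) were lower. H2BC4, H2AC6 and H2BC5 lie near each other in the large histone cluster of chromosome 6, with at most 1 measured gene between neighbours. Histone genes are near-identical copies, so probe sets may read several of them, and the assignment to a single gene is uncertain.

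The p53 target list had a median of 0.21, with 6 of 25 members at least 1.5-fold higher and 2 lower. TP53INP1, a stress-induced autophagy protein (0.89), the kinase gene PLK2 (0.72), SESN2, an inhibitor of mTORC1 (0.61), and the death receptor gene FAS (0.83) were higher beside GDF15 and CDKN1A. CCNG1 and DDB2, a DNA damage sensor (-0.77), were the lower ones, and MDM2 gave 0.01. TP53INP1 read 0.94 with siAURKA-2 and 0.05 with siNT, beside -0.12 for DMSO, 0.00 for MLN8237 and -0.07 for siAURKA-1, and FAS was only 0.31 above DMSO. In the BCL2 and caspase list 3 of 26 members were at least 1.5-fold higher (5 against DMSO) and 0 lower. BIK, a BH3-only activator of cell death, was 0.96 above siNT and 1.67 above DMSO. XIAP, an inhibitor of caspases, gave 0.64 and 0.28, and CASP9 0.59 and 0.22.

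Genes of the endoplasmic reticulum gave 3 of 30 members at least 1.5-fold higher and 0 lower, with a median of 0.07. They were DDIT3, the stress transcription factor CHOP (0.98), HERPUD1, a component of protein disposal (0.94), and HSPA5, the chaperone BiP (0.68). HSPA5 read 0.62 with siAURKA-2 and -0.06 with siNT, beside -0.18 for DMSO, 0.00 for MLN8237 and 0.24 for siAURKA-1, highest with siAURKA-2. Its window is shown for the stress response element, CCAAT and CCACG 9 bases apart, in capitals with the bases between.
HSPA5, chr9:125241294-125241593, minus strand: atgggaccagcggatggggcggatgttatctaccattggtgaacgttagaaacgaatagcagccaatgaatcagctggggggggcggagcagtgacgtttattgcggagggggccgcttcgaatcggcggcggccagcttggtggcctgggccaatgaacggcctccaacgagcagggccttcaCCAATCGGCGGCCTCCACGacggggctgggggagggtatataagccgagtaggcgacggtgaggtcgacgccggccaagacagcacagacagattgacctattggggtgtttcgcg

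This element was found in 7 of 27 windows of the list (25.9%) and in 0.11% of all measured genes. Of the 3 higher genes only HSPA5 held it, while HSP90B1 (-0.17), CALR (-0.01), CANX (0.12) and XBP1 (-0.32) held it and were near or below siNT. The stress sensor gene EIF2AK3 gave -0.54. In the ATF4 and amino acid list 1 of 23 members was at least 1.5-fold higher (SESN2) and 2 lower. These were CTH, which makes cysteine from cystathionine (-1.08), and MTHFD2 of mitochondrial folate metabolism (-0.63). PSAT1 of serine synthesis gave -0.58, ATF4 -0.43 and ASNS 0.08. The median of the ATF4 and amino acid list was -0.07, and -0.55 for siAURKA-1 minus siNT. Of 19 aminoacyl-tRNA synthetase genes 0 were past 1.5-fold. The glutamine carrier gene SLC1A5 was the 1 of 19 listed amino acid transporters that was (-0.81). The glutamine transporter gene SLC38A5, which is outside that list, was lower still (-1.67, and -1.31 against DMSO).

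Lysosomal genes had the highest list median, 0.28, with 22 of 28 above siNT, 4 at least 1.5-fold higher and 2 lower. Against DMSO the median was 0.37, with 7 higher and 1 lower. LIPA, the acid ceramidase gene ASAH1 (0.69), the sialidase gene NEU1 (0.67) and the beta-galactosidase gene GLB1 (0.59) were higher. The sphingolipid activator precursor gene PSAP (0.57) and the hexosaminidase gene HEXA (0.50) were just short. The protease genes CTSS (-0.90) and CTSV (-0.80) were lower, although CTSS lay 0.24 above DMSO. NEU1 read 0.51 with siAURKA-2 and -0.17 with siNT, beside -0.25 for DMSO, 0.00 for MLN8237 and 0.81 for siAURKA-1, and PSAP 0.57 with siAURKA-2 and 0.00 with siNT, beside -0.19 for DMSO, -0.11 for MLN8237 and 0.69 for siAURKA-1, with both AURKA siRNA arrays above the rest. The siAURKA-1 array gave the lysosome list a median of 0.21 against the same siNT array. Autophagy genes had a median of 0.07, with WIPI1, a phosphoinositide-binding protein (0.62), higher and the protease gene ATG4C (-0.90) lower (3 and 1 against DMSO).

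Cholesterol synthesis genes had a median of 0.26, with 16 of 19 above siNT, 3 of them by at least 1.5-fold and 0 lower by that much. Against DMSO the median was 0.53, and 8 members were past 1.5-fold. For the same genes siNT minus DMSO had a median of 0.14, with 4 at least 1.5-fold higher. PMVK read 1.2047 with siAURKA-2 and -0.16 with siNT, beside 0.21 for DMSO, 0.00 for MLN8237 and -0.13 for siAURKA-1, high with siAURKA-2 only. HMGCS1, which makes HMG-CoA, was 0.80 above siNT and 1.23 above DMSO, and STARD4, a cytosolic sterol carrier, 0.78 and 0.70. INSIG1, a sensor of sterols, gave 0.33 and 1.44. GGPS1, which makes geranylgeranyl diphosphate, is outside the list and was 1.01 above siNT. Fatty acid genes had a median of -0.04. The lipid carriers CRABP2 (-1.07), which binds retinoic acid, and FABP5 (-1.05) were at least 2-fold lower, and CPT1A, the entry step of mitochondrial fatty acid oxidation, was higher (0.60).

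Ribosome biogenesis genes lay below siNT in 26 of 30 members, with a median of -0.23, and 2 were at least 1.5-fold lower (4 against DMSO). These were UTP20 of the small subunit processome (-0.85) and WDR12, which acts in large subunit assembly (-0.70). RRS1 (-0.57), the rRNA methyltransferase gene FBL (-0.53), NOP2 (-0.52) and NIP7 (-0.52) did not reach 1.5-fold. MYC, a driver of these genes, gave 0.16. Ribosomal protein genes had a median of -0.01, and RPS14 was the furthest from siNT (-0.52). Mitochondrial genes were grouped by symbol, a grouping made after the values were opened. Of 49 MRPL genes, which encode the large subunit of the mitochondrial ribosome, 35 lay below siNT and 12 above, with a median of -0.11. The 28 MRPS genes of the small subunit had 19 below and 8 above, with a median of -0.08. The 44 NDUF genes of respiratory complex I had a median of 0.04 and 0 were 2-fold apart. TWNK, the mitochondrial DNA helicase, named with TFAM in view, gave -0.65, and POLRMT, the mitochondrial RNA polymerase, 0.00.

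Keratins, the intermediate filament proteins of epithelia, held several lower genes. Of 23 measured keratins 4 were at least 1.5-fold lower and 0 higher. KRT5 read -1.82 with siAURKA-2 and 0.00 with siNT, beside 0.19 for DMSO, -0.26 for MLN8237 and 0.32 for siAURKA-1, with siAURKA-2 alone at the bottom, while its partner KRT14 gave -0.21. KRT80 (-1.63) and KRT7 (-1.28), which are neighbours on chromosome 12, and KRT23 (-0.63) were the others. The simple epithelial keratins KRT8 (-0.39) and KRT18 (-0.46) were short of 1.5-fold. DSP, encoding the desmosomal anchor desmoplakin, read -1.19 with siAURKA-2 and 0.17 with siNT, beside 0.00 for DMSO, 0.00 for MLN8237 and 0.78 for siAURKA-1, opposite in the AURKA siRNAs. Of the other 31 genes of the cornified envelope, S100 and desmosome list, S100A2 (-0.60) was past 1.5-fold. Of the 20 squamous transcription factors only ELF3 (0.77) was, and KLF5 (0.00) and GRHL3 (0.06) lay near siNT. The 8 measured squamous markers had a median of -0.16, all below siNT, from KRT5 (-1.82) to DSC3 (-0.01).

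Among kallikreins and membrane serine proteases 4 of 24 were at least 1.5-fold lower, PRSS23 and TMPRSS11E among them, and 0 higher. The tissue kallikrein genes KLK5 (-1.17) and KLK6 (-1.17), which are neighbours on chromosome 19, were also lower than DMSO (-1.80 and -1.34). KLK8 (-0.51) and KLK10 (-0.36) were short of 1.5-fold. PRSS23 gave -1.98 against siNT and -0.91 against DMSO. Among metalloproteases ADAMTS1 was lower (-1.18; -0.20 against DMSO) and MMP3 higher (0.61).

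Several matrix genes, whose products cells secrete and attach to, were lower than siNT. The list of 26 collagens and matricellular genes held 7 that were lower by 1.5-fold or more and 2 that were higher. Against DMSO it held 2 and 2, so that the excess of lower members was not seen with that control. Its median was -0.08, and 0.00 against DMSO. TNC, encoding tenascin-C (-1.23), THBS1, encoding thrombospondin (-1.15), and SPARC (-0.84) were lower. VCAN, encoding the proteoglycan versican (0.68), and COL4A5 (0.61) were higher. FN1, encoding fibronectin, gave -0.61 against siNT and 0.13 against DMSO. The hemidesmosomal integrin gene ITGA6 (-0.80) was the 1 of 21 integrins, laminins and partners past 1.5-fold, and against DMSO 5 were higher and 1 lower. In the epithelial-mesenchymal list 1 of 24 was higher (TWIST1, 0.63) and 1 lower (CDH2, encoding N-cadherin, -0.65), while CDH1, encoding E-cadherin, gave -0.46. CTNNB1 read -1.14 with siAURKA-2 and 0.24 with siNT, beside -0.12 for DMSO, 0.11 for MLN8237 and 0.00 for siAURKA-1, and its 8 probe sets gave -1.52 to -0.80 against siNT.

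For several TGF-beta and YAP signalling genes siNT and DMSO gave different values. In the TGF-beta and BMP list 3 of 27 members were at least 1.5-fold higher and 4 lower, and against DMSO 3 and 2. ID1 (1.07) and ID2 (0.83), inhibitors of helix-loop-helix factors, were higher than siNT but level with DMSO (0.04 and -0.11). The receptor gene TGFBR2 was higher against both (0.84 and 0.79). PMEPA1 (-2.19) was lower also against DMSO (-0.69), whereas LTBP2, a microfibril-associated matrix protein (-0.89), was level with it (-0.04). Among 25 YAP-responsive genes 4 lay 1.5-fold or more below siNT and 1 above (2 and 2 against DMSO), and the median of -0.16 became 0.04 against DMSO. FJX1 (-1.17) and AMOTL1, which holds YAP at junctions (-0.95), were lower. CCN2 gave -0.78 against siNT and 0.18 against DMSO. LATS2, a kinase that inhibits YAP, was higher (0.62).

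Growth factor and stress programmes held few genes past 1.5-fold. Of 27 immediate early genes 1 was higher (IER3, 0.60) and 1 lower (CCN2), while FOS gave 0.45 and JUNB 0.16. Among 20 feedback regulators of MAPK signalling ERRFI1, an inhibitor of EGFR, was higher (0.64) and ETV4 lower (-0.72), and against DMSO 5 were higher and 0 lower. EREG (0.62) was the 1 EGF family ligand past 1.5-fold, HBEGF gave 0.55 and the receptor gene EGFR 0.13. Hypoxia and glycolysis genes lay below siNT in 22 of 32 members, with 4 at least 1.5-fold lower and 0 higher. PGAM1, a phosphoglycerate mutase (-0.95), LDHA, lactate dehydrogenase (-0.64), and HIF1A, the oxygen-sensitive transcription factor subunit (-0.86), were lower against DMSO as well (-1.02, -0.73 and -0.82). ANGPTL4, the lowest member (-1.195), was level with DMSO (0.04). Against DMSO the list held 4 lower and 0 higher members. The list of 26 NRF2 targets and aldo-keto reductases had a median of -0.06 (0.10 against DMSO). The 1 member past 1.5-fold at the high end was CYP1B1 (1.78), placed in this list although described above as induced through the aryl hydrocarbon receptor. Its 5 probe sets ran from -0.06 to 3.105. NQO1 (-0.94) and GCLM (-0.76), both of the antioxidant response, were the 2 at the low end, and HMOX1 gave 0.26. Against DMSO the list held 2 higher and 1 lower. Of 20 heat shock genes 0 were past 1.5-fold from siNT, and HSP90AA1 was furthest from it (-0.49). Against DMSO 3 were lower and 1 higher, and the median of -0.13 became -0.28. Among surface markers used for stem-like carcinoma cells, CD24 and the drug exporter gene ABCG2 (-0.91) were lower, ALDH1A3 was higher (0.60), and CD44 gave 0.31; against DMSO 0 of the 21 were higher and 1 lower. Of 30 angiogenic and secreted factors APLN, encoding apelin, was at least 2-fold lower (-1.03), beside ANGPTL4, and IGFBP3 higher by 0.59.

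Genes past 2-fold were spread over the genome. Every autosome held at least 1 lower gene, from 22 on chromosome 1 to 1 each on chromosomes 16, 18, 21 and 22. Immediate neighbours that were both past 2-fold were few, with KRT80 and KRT7, KLK5 and KLK6, H2BC4 and H2AC6, and LIPA and IFIT2 in a shared direction. MYEOV (-1.28) and CCND1 on chromosome 11, and PJA2 (-1.09) and MAN2A1 (-1.26) on chromosome 5, were the other pairs of this kind, named after their values were seen. IFNE and MTAP (-1.12) are adjacent on chromosome 9 and differed in opposite directions. Of 17406 protein-coding genes 68 were at least 2-fold higher and 154 lower, and of the long noncoding RNA genes 2 and 3. The promoter windows of the lower genes had a median GC content of 65.0%, those of the higher genes 63.3% and those of all measured genes 63.0%. The NF-kB motif occurred in 9 of 55 windows of the higher genes (16.4%) and in 4 of 130 of the lower (3.08%), beside 6.54% over all measured genes. The E2F motif occurred in 3 (5.45%) and 15 (11.5%), beside 9.0%. The higher genes include CXCL2, IL6 and TNFAIP3, whose matches are shown above, and the shares were not tested.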

How the data were processed

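Total RNA, extracted with ISOGEN per the labels' protocols, was measured on 1 Affymetrix GeneAtlas array for each of 5 groups. The authors deposited values from RMA (robust multi-array averaging), per the submitters' processing notes. The software, centring and base of the logarithm are not given there; the deposited values were taken as log2, the scale RMA gives. That each probe set had been centred on its median over the 5 arrays, which removes the level, was found from the values.

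Probe sets were named from GEO's platform annotation, with symbols updated through RefSeq (GRCh38.p14). Of 49386 probe sets, 45259 named 1 gene, 1327 named several and were left out, and 2713 had no listed gene. A gene's value was the median of its probe sets on each array, and the difference was siAURKA-2 minus siNT, computed in Python 3.11.15 with pandas 2.3.3; figures were drawn with matplotlib 3.10.9. Thresholds were 2-, 1.5- and 3-fold. With 1 array a group no test, error or replicate check was possible, and precision is limited by the number of arrays. The counting was tested on simulated data.

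Named in the text are AURKA, the 30 highest and 30 lowest genes, the 15 genes each way furthest beyond all 4 other arrays, the 15 each way with several probe sets of large difference, genes next to the 2-fold mark, and up to 8 members and the defining members of each list. Other genes are marked as chosen after their values were seen. Members and lists were chosen with earlier results of these data known. Motifs were searched on both strands of RefSeq promoter windows, held for 14492 of 18239 genes.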

Additional observations from a re-analysis of the deposited data

How the results depend on the processing

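Against siNT, 358 genes were higher and 568 lower at 1.5-fold, and 8 and 23 at 3-fold. With the DMSO array as the control, 132 genes were at least 2-fold higher and 102 lower, and with the mean of both controls 78 and 100, so the share of lower genes depends on the siNT array. Of the 159 lower genes 3 were higher than DMSO, namely ANGPTL4 (0.0362), TMPRSS11E (0.88) and SPOCK1 (0.46). SPOCK1 was named after its value was seen. Among called genes, 35 of the 71 higher and 68 of the 159 lower were also at least 2-fold from DMSO. Many of the 423 named genes were under 2-fold from siNT. Of the 423, 37 were no longer past the threshold against DMSO and 30 passed it only there. A further 2 that were past it against siNT had the opposite sign against DMSO. Of 48 list medians 1, DNA replication, passed 1.5-fold only against DMSO (-0.62). Taking for each gene the probe set of the largest absolute difference gave 212 higher and 372 lower genes, since it selects the extreme. Genes with several probe sets alone gave 42 and 106, from fewer genes. Centring each array on its median gave 71 and 159, the mean of probe sets 67 and 147, leaving out probe sets marked as shared between transcripts 59 and 142, and the median of the probe set differences, an alternative chosen after seeing the data, 74 and 157. A filter on low values could not be run, because the values carry no level. No paired analysis was possible because each group was 1 array. Signal over background is not known from these values, and no replicate could be left out.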

Other observations

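In several genes past 2-fold the probe sets disagreed. QDPR had values of -1.80, -1.79 and 0.05 for its 3 probe sets. THBS1 ran from -1.78 to 0.55, MKRN1, a ubiquitin ligase, from -1.72 to 0.47, TNC from -2.25 to -0.03, and ABCG1 from -0.03 to 1.66. HLA-B ran from 0.17 to 1.37, CDKN2B from 0.12 to 1.30 and IL6 from 0.46 to 1.73. The median used above gives 1 value for each of these genes and hides that range.

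Proteasome genes, grouped by the symbol prefix PSM after the values were seen, lay below siNT in 33 of 46 members, with a median of -0.05 and 0 at 2-fold. Genes of intraflagellar transport, with the prefix IFT, lay above siNT in 14 of 20, with a median of 0.07. Adjacent genes could differ in opposite directions. GOLT1A (1.99) and PLEKHA6 (-1.0003) lie side by side on chromosome 1, and LRRC49 (1.05) and UACA (-1.13) lie with 1 measured gene between them on chromosome 15.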
